A study of Mus musculus with 3 samples.

Results

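The connexin genes Gja1, Gja4, Gja5, Gjb2, Gjb5 and Gjc1 were followed through single-cell RNA-seq of whole mouse embryos. They are 6 of the 31054 features counted in each embryo, and were chosen by symbol with their levels across lineages already known, so those levels are given as a description without a test. All 3 embryos were wild type (wt), male and from a C57BL/6 x 129 SvEv cross, with no transgene or treatment and no second group. They were collected at embryonic day 8 at a labelled stage of 0 to 2 somites, the extraembryonic tissue was taken off, and each embryo was dissociated and made into 1 library. The study asked which genes mark the left-right organizer (LRO), the ciliated pit at the embryonic node.

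Connexins are membrane proteins that assemble into a hemichannel, which docks with one on the neighbouring cell to make a gap junction, through which ions and small metabolites pass. Which connexins a cell makes sets which neighbours it can couple to and what passes. Gja1 (Cx43) is the widespread connexin of early embryos and of much adult tissue, Gjc1 (Cx45) is an early connexin of heart and vessel cells, Gja4 (Cx37) and Gja5 (Cx40) are vascular connexins, Gja5 also being found in the atria and conduction system, and Gjb2 (Cx26) and Gjb5 (Cx31.1) are found in epithelia. Gap junction communication has been linked to left-right patterning in chick and frog embryos.

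On the mouse genome (GRCm38, GENCODE annotation), Gja1 lies on chromosome 10 and Gjc1 on chromosome 11, each with no other connexin gene beside it. Gja4 (127311421 to 127314039) and Gjb5 (127354809 to 127358181) both lie on the minus strand of chromosome 4. Gjb2 lies on chromosome 14, 18600 bases from Gjb6. Gja5 lies on chromosome 3. The 250 bases before the RefSeq start (GRCm38.p6), in the direction of the gene, are printed for the 4 members with a promoter entry whose levels differ most in their pattern, so that the broad gene and the 3 restricted genes can be set side by side. Capitals mark any match, on either strand, to the letters of ETS factors (CCGGAA), of factors of the GATA family (AGATAA), of SP1 (GGGCGG), of the TATA box (TATAAA), or of AP1 factors (TGACTCA). No matches overlap in these windows.
Gja1, chr10:56377050-56377299, plus strand: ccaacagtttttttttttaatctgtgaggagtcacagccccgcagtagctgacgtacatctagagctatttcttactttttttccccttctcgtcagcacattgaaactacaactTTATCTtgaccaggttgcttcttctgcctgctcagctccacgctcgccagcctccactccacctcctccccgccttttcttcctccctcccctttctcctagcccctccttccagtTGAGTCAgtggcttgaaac
Gja4, chr4:127314040-127314289, minus strand: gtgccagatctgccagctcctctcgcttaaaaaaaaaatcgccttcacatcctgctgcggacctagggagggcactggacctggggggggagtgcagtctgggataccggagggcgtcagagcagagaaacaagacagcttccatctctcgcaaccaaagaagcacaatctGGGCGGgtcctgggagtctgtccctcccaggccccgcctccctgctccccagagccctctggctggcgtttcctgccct
Gjb2, chr14:57104703-57104952, minus strand: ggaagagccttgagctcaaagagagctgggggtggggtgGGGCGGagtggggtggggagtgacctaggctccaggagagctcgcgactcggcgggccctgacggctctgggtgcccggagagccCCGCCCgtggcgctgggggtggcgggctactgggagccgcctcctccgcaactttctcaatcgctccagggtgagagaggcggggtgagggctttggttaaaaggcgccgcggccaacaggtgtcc
Gjb5, chr4:127358165-127358414, minus strand: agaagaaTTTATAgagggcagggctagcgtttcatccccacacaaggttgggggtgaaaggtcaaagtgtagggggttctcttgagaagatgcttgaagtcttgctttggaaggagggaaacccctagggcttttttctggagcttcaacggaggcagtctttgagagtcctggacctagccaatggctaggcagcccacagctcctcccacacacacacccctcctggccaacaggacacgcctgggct
Of the 32851 promoters in the table, 12.0% held the ETS letters, 9.99% the GATA letters, 32.7% the SP1 letters, 12.4% the TATA letters and 4.46% the AP1 letters in the same 250 bases. The Gja1 window held 1 GATA match and 1 AP1 match. The Gja4 window, from the endothelial gene, held 1 SP1 match and none to the ETS or GATA letters. The Gjb2 window held 2 SP1 matches, and the Gjb5 window 1 TATA match, near the end farthest from the gene's start. GC content was 50.0%, 61.2%, 69.2% and 54.4% for Gja1, Gja4, Gjb2 and Gjb5, against a median of 52.4% over all promoters. These matches describe the letters only.

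The libraries held 6579, 8621 and 8333 cell barcodes. After the filters 5795, 7956 and 7844 cells were kept, 21595 in all, with a median of 27635, 14615 and 16332.5 UMIs (unique molecular identifiers, each standing for 1 captured RNA molecule). Of these, 15244 cells fell in 1 of 15 lineages by their marker UMIs, and in each lineage all 6 markers were higher inside it than outside. The same markers set the lineages, so this is no independent check of the labels. LRO-like cells were those with a UMI of at least 4 of Foxj1, Noto, Pifo, Fam183b, Cfap126 and 1110017D15Rik, and there were 77, 78 and 108 of them. A barcode sequence was found in more than 1 library for 57 of 23475 distinct barcodes. Although extraembryonic tissue had been removed, 2482 cells were extraembryonic endoderm-like and 1171 mesenchyme-like. Embryo 1 had only 2 erythroid-like cells, so that lineage has values from embryos 2 and 3. Levels are given as CPM, the UMIs of a gene in 1000000 UMIs of the cells summed. Since the 3′ protocol counts each molecule once, CPM can be compared between genes without dividing by length, apart from differences in capture.

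Among the cells with a lineage, Gja4 was found in the endothelium-like cells and next to nowhere else. Its level there was 50.3, 76.6 and 70.2 CPM in embryos 1, 2 and 3 (65.7 ± 13.7, mean ± SD, n = 3), and these cells held 88.7% of its UMIs in all lineages. All embryos were high, and the highest value of any other lineage was 1.65 CPM, in allantois-like cells of embryo 3. Cells with a lineage held 90.8%, 89.5% and 82.0% of the Gja4 UMIs of all kept cells in embryos 1, 2 and 3. The rest lay in kept cells without a lineage. A UMI of Gja4 was found in 49.5%, 49.1% and 54.5% of endothelium-like cells, with exact Clopper-Pearson 95% intervals of 42.4 to 56.6, 42.3 to 55.9 and 49.3 to 59.6%. These intervals, like all intervals here, cover counting error only. In neural plate-like cells, which should lack this gene, the share was 0.143%, 0.564% and 0.357%, with a median depth of 21275 UMIs per cell against 16582.5 in endothelium-like cells. Single cells held up to 17 Gja4 UMIs. In LRO-like cells it had 0, 1 and 1 UMI, found in 0%, 1.28% and 0.926% of the cells, and the upper limit of the interval in embryo 1 was 4.68%. The ratio of its level in LRO-like cells to that in all other lineage cells, pooled over embryos, was 0.0713, with a counting interval of 0.00862 to 0.258. That other level is mostly set by the endothelium-like cells, so the ratio is a description. It does not show whether LRO-like cells differ from the remaining lineages.

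Gja5, the other vascular connexin, was barely detected at this stage. It had 5 UMIs in 5 of the 21595 cells, among 502140140 UMIs. LRO-like, endothelium-like and cardiac mesoderm-like cells had none. A count of 0 allows up to 1.14% of the 263 LRO-like cells, 0.376% of the 798 endothelium-like cells and 0.389% of the 771 cardiac mesoderm-like cells to hold a UMI. It entered no test.

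Gjb2 followed the endoderm. Its level in extraembryonic endoderm-like cells was 19.8, 18.1 and 18.4 CPM in embryos 1, 2 and 3 (18.7 ± 0.90, n = 3), which held 79.7% of its lineage UMIs. Definitive endoderm-like cells came next with 4.75, 3.82 and 3.01 CPM, and the embryo values of the pair did not overlap. LRO-like cells had the next mean, with 2.61, 2.26 and 0.884 CPM, from only 7, 4 and 3 UMIs. They lay below the definitive endoderm-like values and overlapped those of the cardiac mesoderm-like (1.87 ± 0.24) and surface ectoderm-like cells (1.79 ± 0.95). The share of cells with a UMI was 45.0%, 28.2% and 28.4% in extraembryonic endoderm-like cells and 0.856%, 0.564% and 0.535% in neural plate-like cells. Gjb1 (Cx32), a connexin of liver and other epithelia that was no member, was highest in the same lineage at 14.4 ± 1.28 CPM, which held 95.3% of its UMIs. In definitive endoderm-like cells Gjb1 was at 0.476 ± 0.117 CPM, from 11 UMIs.

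Gjb5 was low in every lineage and highest in mesenchyme-like, allantois-like and surface ectoderm-like cells. Mesenchyme-like cells had 10.1, 8.82 and 8.34 CPM, allantois-like cells 8.59, 5.59 and 8.71 CPM, and surface ectoderm-like cells 6.64, 6.10 and 6.61 CPM. Allantois-like cells overlapped each of the other two in their embryo values, while every mesenchyme-like value lay above every surface ectoderm-like value. LRO-like cells had 1.12, 1.13 and 2.95 CPM, from 3, 2 and 10 UMIs, and overlapped the neural plate-like cells next to them (1.62 ± 0.097). Extraembryonic endoderm-like cells, the highest for Gjb2, were near the bottom for Gjb5 at 0.318 ± 0.016 CPM. Gja4, on the same chromosome, did not share this pattern: over the 15 lineages its mean log2(CPM + 1) had a Pearson correlation of -0.14 with Gjb5. The points of this correlation are lineages of the same libraries, so it is a description. In primordial germ cell-like cells Gjb5 was at 3.91 ± 3.41 CPM, with no UMI in embryo 2.

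**Figure D1:**
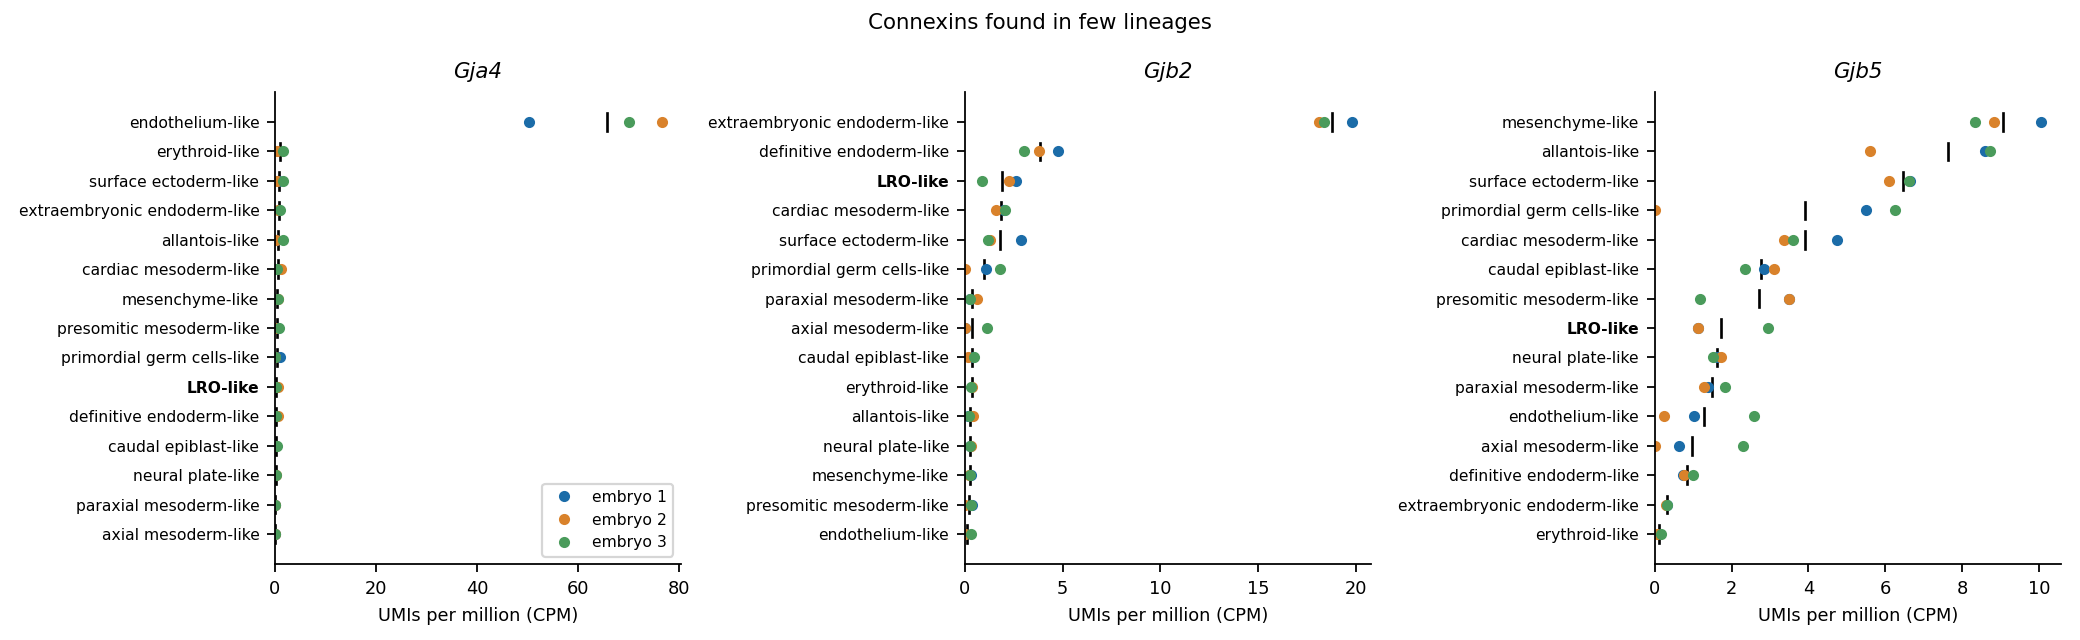
Level of Gja4, Gjb2 and Gjb5 in CPM (x axis, from 0) in each lineage (y axis, ordered by mean). Points are embryos and the short line is their mean. Gja4 stands alone in endothelium-like cells at 65.7 CPM, Gjb2 in extraembryonic endoderm-like cells at 18.7 CPM, while Gjb5 falls off gradually from 9.07 CPM in mesenchyme-like cells, and LRO-like cells (bold) are low for all of them.

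Gja1 was the most abundant member, with 65591 UMIs in all kept cells, and was found in every lineage. Neural plate-like cells had the highest mean, with 168, 173 and 142 CPM in embryos 1, 2 and 3 (161 ± 16.7, n = 3). Surface ectoderm-like (154 ± 17.1), caudal epiblast-like (154 ± 7.94), definitive endoderm-like (145 ± 30.3) and presomitic mesoderm-like cells (144 ± 14.0) followed, and the embryo values of each lineage overlapped those of the next down to paraxial mesoderm-like cells (135 ± 11.5). LRO-like cells stood in the lower part of this order, with 113, 106 and 94.3 CPM (105 ± 9.41). They overlapped the cardiac mesoderm-like cells above them (111 ± 13.1) and lay above every mesenchyme-like embryo value (82.2 ± 10.9). The highest of those values was 92.8 CPM. Axial mesoderm-like cells, which share the midline with the LRO, had 73.2 ± 14.2 CPM, endothelium-like cells 71.4 ± 18.5, and erythroid-like cells 30.3 CPM in the mean of embryos 2 and 3.

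Gjc1 was the second most abundant member, with 31469 UMIs, and was highest in caudal and mesodermal cells. Caudal epiblast-like cells had 86.0, 91.1 and 88.5 CPM (88.5 ± 2.57), followed by presomitic mesoderm-like (87.2 ± 4.59), allantois-like (85.4 ± 2.73) and paraxial mesoderm-like cells (82.9 ± 3.54), which overlapped each other. LRO-like cells had 57.4, 75.3 and 68.4 CPM (67.0 ± 9.05), in the middle of the order and overlapping the cardiac mesoderm-like (71.9 ± 7.11) and axial mesoderm-like cells (66.2 ± 4.72). It was low in extraembryonic endoderm-like cells with 8.96, 12.1 and 9.54 CPM (10.2 ± 1.69) and erythroid-like cells with 5.20 and 5.25 CPM. Neither overlapped any other lineage. Cells just outside the LRO rule, with 3 of its 6 markers (47 cells), had 114 ± 20.3 CPM of Gja1 and 56.0 ± 2.55 CPM of Gjc1, and those just inside it, with 4 (46 cells), had 112 ± 18.6 and 82.2 ± 13.7 CPM.

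**Figure D2:**
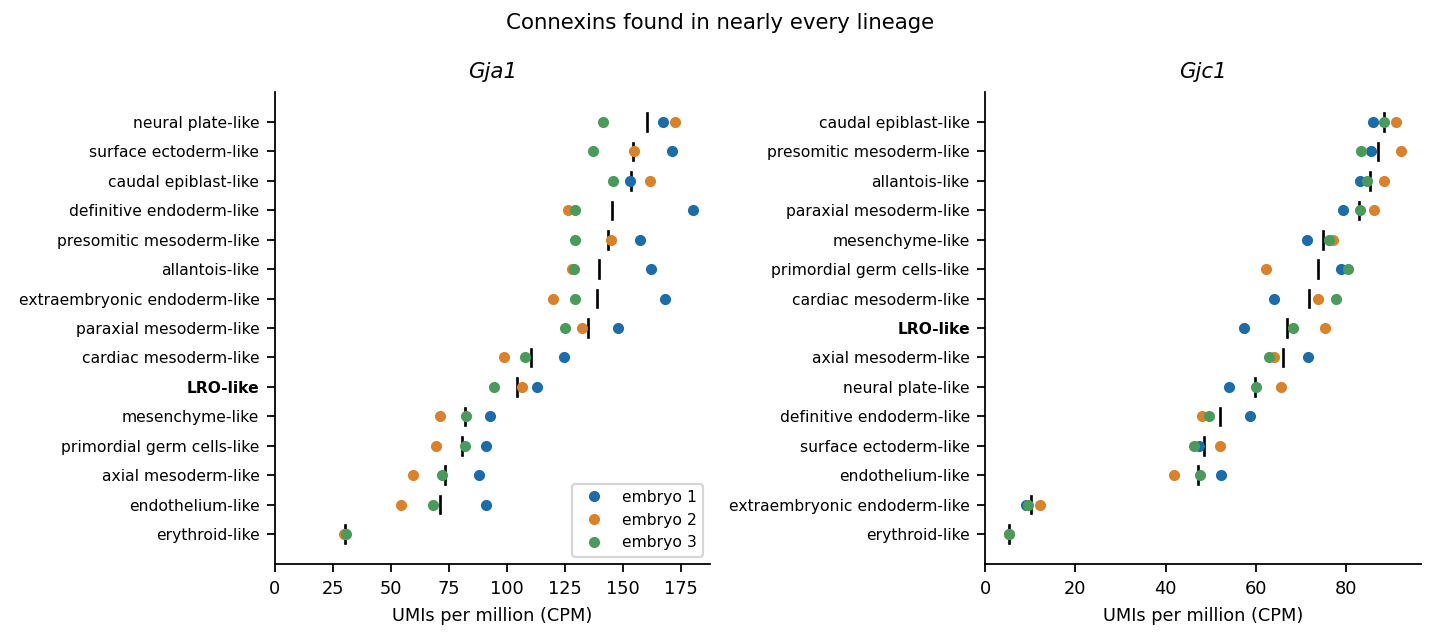
Level of Gja1 and Gjc1 in CPM (x axis, from 0) in each lineage (y axis, ordered by mean). Points are embryos and the short line is their mean. Gja1 runs from 161 CPM in neural plate-like cells down to 30.3 CPM in erythroid-like cells, and Gjc1 breaks off from 47.3 CPM in endothelium-like cells to 10.2 CPM in extraembryonic endoderm-like cells, with LRO-like cells (bold) inside the range of both.

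Put together, the connexin UMIs of LRO-like cells were mostly of these 2 genes. Of the UMIs of all 20 connexin genes in LRO-like cells, Gja1 gave 56.2 ± 4.76% and Gjc1 36.0 ± 4.02% (n = 3), while Gjb2, Gjb5 and Gja4 gave 1.02%, 0.949% and 0.151%. The axial mesoderm-like cells also held mostly these genes, with Gja1 at 48.1 ± 5.04% and Gjc1 at 43.9 ± 3.55%. Closer to the LRO-like make-up were, among others, allantois-like (56.9% and 35.0%), cardiac mesoderm-like (55.3% and 36.2%) and presomitic mesoderm-like cells (59.4% and 36.1%). The make-up was thus not particular to LRO-like cells or the midline. In endothelium-like cells Gja4 gave 35.0 ± 9.17%, about as much as Gja1 with 37.4 ± 7.87%. In extraembryonic endoderm-like cells Gja1 gave 74.7 ± 3.28% and Gjb2 10.2 ± 0.87%, more than Gjc1 with 5.64 ± 1.57%. Apart from erythroid-like cells at 53.3 CPM, the total of the 20 genes ran from 151 ± 14.8 CPM in axial mesoderm-like to 286 ± 22.2 CPM in surface ectoderm-like cells, with LRO-like cells at 186 ± 10.9 CPM.

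**Figure D3:**
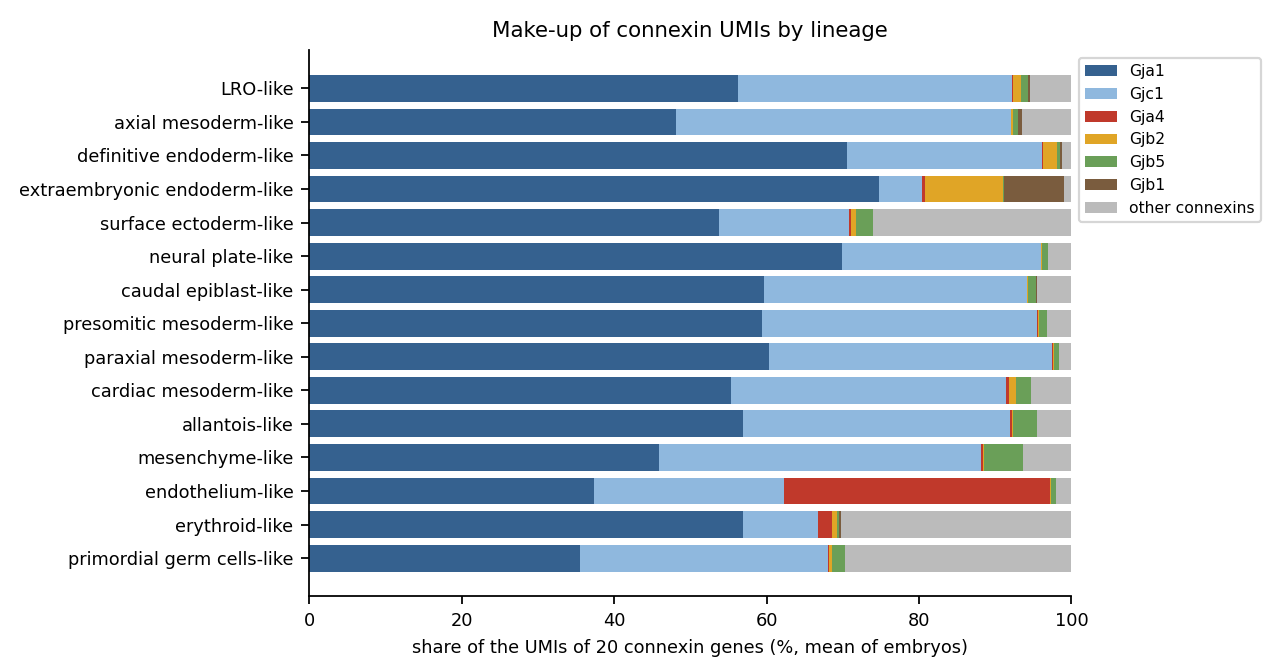
Share of the UMIs of 20 connexin genes (x axis, percent, mean of the embryos' shares) given by each gene in each lineage (y axis). Gja1 and Gjc1 fill most of the LRO-like bar (56.2% and 36.0%), Gja4 takes 35.0% in endothelium-like cells and Gjb2 10.2% in extraembryonic endoderm-like cells. Connexins with no colour of their own are summed in grey.

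Single cells were compared after thinning to 5000 UMIs, which leaves out cells with fewer. This kept 77, 69 and 106 of the 77, 78 and 108 LRO-like cells. Of LRO-like cells, 30.5% then held a Gja1 UMI and 29.7% a Gjc1 UMI (mean of embryos), against 53.6% and 24.8% of neural plate-like cells. By embryo, the Gja1 share was 32.5%, 29.0% and 30.2% in LRO-like cells. In mesenchyme-like cells, which were lower in Gja1 CPM, it was 34.4%, 27.8% and 32.8%, so these shares overlapped. Without thinning, a Gja1 UMI was found in 64.9%, 64.1% and 75.0% of LRO-like cells, and a Gjc1 UMI in 67.5%, 64.1% and 73.1%. Both genes were found together in 6.49%, 8.70% and 15.1% of thinned LRO-like cells, and the product of their separate shares was 8.43%, 9.24% and 9.40%, so that embryos 1 and 2 lay below the product and embryo 3 above it. No connexin UMI was found in 47.5 ± 3.76% of them.

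Within the LRO-like cells Gja1 moved with the depth of the cell. In cells under 20000 UMIs it was at 34.5, 75.8 and 79.2 CPM in embryos 1, 2 and 3, and in cells of 20000 UMIs or more at 126, 115 and 96.3 CPM. The deeper cells were higher in all embryos and the groups did not overlap. Since CPM already divides by the cell's UMIs, this is a difference in share. A UMI of Gja1 was lacking in 82.8%, 61.0% and 63.9% of the shallow and 6.25%, 8.11% and 5.56% of the deep LRO-like cells. Axial mesoderm-like cells had the same order, with 32.1 ± 16.3 CPM in shallow and 89.3 ± 13.2 CPM in deep cells, as had primordial germ cell-like cells of embryos 1 and 3 and erythroid-like cells of embryos 2 and 3. Cardiac mesoderm-like cells had it too, by less, with 123, 91.3 and 91.6 CPM in shallow and 125, 108 and 120 CPM in deep cells. Neural plate-like cells did not (167 ± 19.7 and 160 ± 18.2 CPM). Gjc1 in LRO-like cells was 58.3 ± 10.2 CPM in shallow and 68.6 ± 9.26 CPM in deep cells, higher in the deep cells of each embryo but overlapping between embryos. In extraembryonic endoderm-like cells Gjc1 was at 2.20 ± 0.57 CPM in shallow and 15.9 ± 6.05 CPM in deep cells, with no overlap. A Gjc1 UMI was lacking in 84.5%, 68.4% and 72.1% of these deep cells, while 1 of them held 9. Cells with high doublet scores were kept here, and their part was not tested. Erythroid-like cells had the same order, with 1.70 and 1.83 CPM of Gjc1 in shallow and 15.3 and 11.6 CPM in deep cells of embryos 2 and 3, as had endothelium-like cells by a small margin. What sets these differences was not tested.

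**Figure D4:**
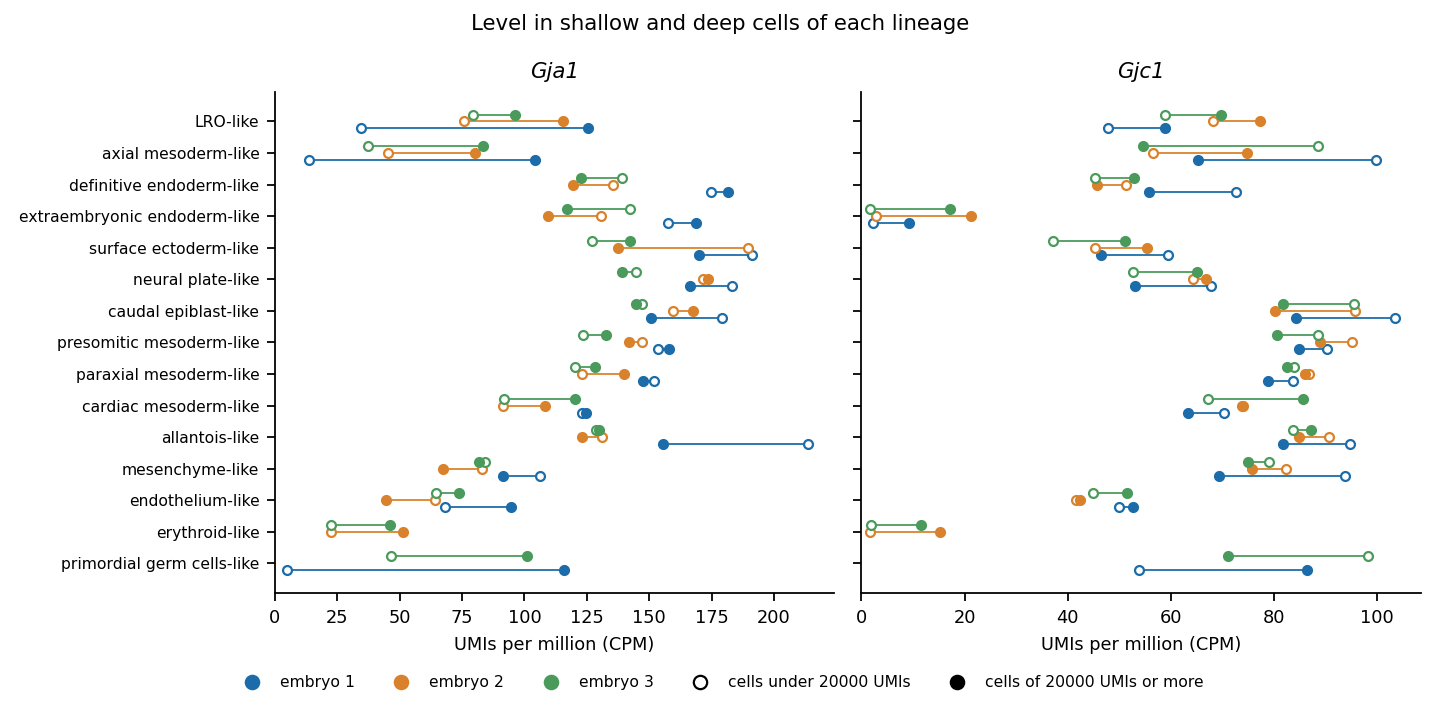
Level of Gja1 (left) and Gjc1 (right) in CPM (x axis, from 0) in cells under 20000 UMIs (open points) and in cells of 20000 UMIs or more (filled points) of each lineage (y axis), with 1 line per embryo where both hold at least 10 cells. For Gja1 the filled point is the higher one in every embryo for the LRO-like and the axial mesoderm-like row, among others, and for Gjc1 in extraembryonic endoderm-like cells, where shallow cells are at 2.20 CPM, and in erythroid-like cells.

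Other genes of cell junctions were tested between the LRO-like cells and all other lineage cells, from UMIs summed per embryo. The genes that passed as higher were cadherins, the adhesion proteins that hold cells together where gap junctions form. Cdh2 (N-cadherin), which joins cells of neural and mesodermal tissue, was at 101, 100 and 65.4 CPM in LRO-like cells, the highest mean of the 15 lineages with axial mesoderm-like cells next (84.5 ± 20.1 CPM), and was higher than in the other cells by 1.27 on the log2 scale (SE 0.174, edgeR quasi-likelihood adjusted p = 0.00063). Cdh1 (E-cadherin), the cadherin of epithelia, was at 92.7, 46.4 and 70.7 CPM and was higher by 0.81 (SE 0.213, edgeR adjusted p = 0.0260), a call lost without embryo 3 (adjusted p = 0.176). Cdh5 (VE-cadherin), which is also on the marker list of endothelium-like cells, had 2 UMIs in LRO-like cells, and the ratio of its pooled level to that in the other cells was 0.0592, with a counting interval of 0.00717 to 0.214. It entered the test only through the cells that its own marker list sets, so its call as lower is not read as a result. Of the 31 listed genes that were no members 18 could be tested, of which 2 rose, and Cdh5 was the 1 called lower. Over all 15439 genes tested 18.7% passed, 11.4% as higher and 7.24% as lower. With the embryo as a block 8 of the 18 passed, where 31.1% of all genes did, and these 8 include Cdh5, Gjb1 and Gja6, which had 2, 3 and 1 UMIs in LRO-like cells and could be tested only through the cells where they are high.

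Among the other connexins of that list, Gjb1 had 3 UMIs in LRO-like cells, a ratio to the other cells of 0.172 with a counting interval of 0.0354 to 0.504. Most of the other cells' Gjb1 UMIs lay in extraembryonic endoderm-like cells. The ratio therefore does not show whether LRO-like cells differ from the remaining lineages. Besides the cadherins, the genes with more UMIs that passed with the block were Ctnna1, Panx1 and Csnk1d, with log2 differences of -0.27, 0.48 and -0.31. Panx1, a channel protein related to connexins in shape and not in sequence, was at 19.8 ± 1.69 CPM in LRO-like cells, with caudal epiblast-like cells next (18.3 ± 2.07), and without the block its edgeR adjusted p was 0.0806. Of the 8 connexin partners 0 passed without the block by edgeR and by DESeq2, and 1 had an unadjusted p under 0.05. Among them Tjp1 (ZO-1), the scaffold that binds Gja1, had a log2 difference of 0.06 (edgeR adjusted p = 0.775). For the members themselves the log2 difference in the same comparison was -0.33 for Gja1, 0.15 for Gjc1, -0.65 for Gjb5 and -1.05 for Gjb2, as a description. That of Gjb2 is mostly set by extraembryonic endoderm-like cells, which held 79.7% of its lineage UMIs. By mean CPM of Gjb2, LRO-like cells ranked 3 of the 15 lineages.

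The members were then compared between cells of a lineage rich and poor in cell division transcripts. In each embryo and lineage the cells were put in 3 equal parts by their thinned UMIs of 25 genes of the G2 and M phases, and the top part (G2/M-high) was compared with the bottom part (G2/M-low) in the 13 lineages with enough cells. The log2 difference of Gja1 lay above 0 in 13 of 13 lineages, from 0.05 to 1.02, and that of Gjc1 below 0 in 11 of 13, from -0.49 to 0.67. Gja1 was higher in every embryo in 9 of these lineages, and Gjc1 lower in every embryo in 8 and higher in 1. The lineages come from the same embryos and are not independent, so these counts of signs are a description. Of the 65 pairs of a member and a lineage, 2 passed as higher and 1 as lower. All 13 lineages were tested in 1 fit that shared the spread, with 52 residual degrees of freedom. In the main setting it had no term for the embryo, so sums of the same embryo were treated as independent. The SE and p of a lineage thus do not rest on its own embryos alone. Genes were filtered once over all lineages, so Gja4, Gjb2 and Gjb5 also entered where they had few UMIs. In axial mesoderm-like cells Gja4 had 0 UMIs and Gjb2 1, and in LRO-like cells Gja4 had 2. Such pairs could hardly pass, and their not passing is not read as a result. Of all gene and lineage pairs 1.85% passed, 1.01% as higher and 0.836% as lower.

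Of these 3 pairs the largest difference was that of Gja1 in LRO-like cells. It was at 125, 132 and 104 CPM in the G2/M-high and at 8.08, 80.7 and 77.1 CPM in the G2/M-low cells of embryos 1, 2 and 3, so that every upper value lay above every lower one. The log2 difference was 1.02 (SE 0.280, edgeR adjusted p = 0.00827), where 4.23% of all genes passed as higher. In either direction 1475 of 12471 genes passed in LRO-like cells, 947 of them as lower, against 35 to 222 in each other lineage. The Gja1 difference rested on embryo 1, whose G2/M-low cells held 3 Gja1 UMIs in 25 cells: without it the log2 difference was 0.54 and the adjusted p 0.193. With 2 equal parts in place of 3 it was 0.31 (adjusted p = 0.492). The study had singled out Gja1 in a part of the LRO cells of these embryos, so this is not independent evidence. The G2/M-high cells were also deeper, with a median of 51766, 33259 and 36916 UMIs per cell against 12665, 10249 and 14454, and the part of depth in the difference was not tested. Gjc1 in the same cells was at 55.0, 77.9 and 72.5 CPM in the G2/M-high and 40.4, 86.9 and 68.0 CPM in the G2/M-low cells, overlapping (log2 difference 0.06, edgeR adjusted p = 0.910).

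Gjc1 passed in neural plate-like and extraembryonic endoderm-like cells, in opposite directions. In neural plate-like cells it was at 47.1, 56.5 and 49.7 CPM in the G2/M-high and 64.1, 78.5 and 67.8 CPM in the G2/M-low cells, with no overlap. The log2 difference was -0.49 (SE 0.132, edgeR adjusted p = 0.0417), where 0.289% of all genes passed as lower. It was -0.49 without any 1 of the embryos, at adjusted p of 0.166 without embryo 1, 0.311 without embryo 2 and 0.609 without embryo 3. The call was also lost when 1 more marker was needed for a lineage (adjusted p = 0.0839) and with 2 equal parts in place of 3 (-0.33, adjusted p = 0.405). In extraembryonic endoderm-like cells it was at 7.75, 16.3 and 10.1 CPM in the G2/M-high and 6.69, 5.40 and 10.0 CPM in the G2/M-low cells, overlapping. The log2 difference was 0.67 (SE 0.193, edgeR adjusted p = 0.0498), where 1.62% of all genes passed as higher. It rested on embryo 2, without which it was 0.03 (adjusted p = 1), and on the cells with the highest doublet scores, without which it was -0.17 (adjusted p = 1). It was also lost when cells nearly without mitochondrial UMIs were kept (0.62, adjusted p = 0.0846). In both lineages the G2/M-high cells were deeper in each embryo. Median UMIs per cell were 31926, 16592 and 17278 against 22693, 12024 and 12548 in neural plate-like cells. In extraembryonic endoderm-like cells they were 32766, 18412 and 18704 against 27494, 14581 and 14041. The part of depth in either difference was not tested. Whether a member's difference varied between lineages was tested in the same fit, and no member passed. The adjusted p was 0.176 for Gjc1, 0.683 for Gjb5, 0.861 for Gjb2 and 1 for Gja1 and Gja4, where 1.45% of all genes passed. Gja4, Gjb2 and Gjb5 had few UMIs in several of these lineages and could hardly pass. Their not passing is therefore not read as a result.

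The restricted members did not pass in the lineages where they are found. Gja4 in endothelium-like cells was at 47.1, 107 and 74.9 CPM in the G2/M-high and 62.9, 75.1 and 66.2 CPM in the G2/M-low cells (log2 difference 0.13, edgeR adjusted p = 0.996). Gjb2 in extraembryonic endoderm-like cells had a log2 difference of 0.00 (SE 0.245). Gjb5 in mesenchyme-like cells was at 10.0, 5.68 and 7.02 CPM in the G2/M-high and 11.7, 10.3 and 11.2 CPM in the G2/M-low cells, lower in all embryos with no overlap (log2 difference -0.60, SE 0.323, edgeR adjusted p = 0.841).

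LRO-like cells were also split by crown markers. The crown is the rim of the pit, whose cells express Nodal, the ligand that starts the left-sided programme, and Dand5, its antagonist. Before thinning, a Dand5 UMI was found in 5.68%, 4.15% and 4.53% of all kept cells, more cells than were LRO-like. A single Dand5 UMI therefore does not by itself mark a crown cell. LRO-like cells with a UMI of either gene after thinning (40, 23 and 38 cells) had 93.7, 70.5 and 61.5 CPM of Gja1, and the others (37, 46 and 68 cells) had 131, 120 and 111 CPM. The crown-marked cells were lower in each of the 3 embryos and the groups did not overlap. The log2 difference was -0.70 (SE 0.160) and missed the threshold over the 8939 genes tested (edgeR adjusted p = 0.107), where 0.380% of genes passed. With the embryo as a block it passed, at -0.72 (SE 0.125, edgeR adjusted p = 0.000532), where 4.08% of genes passed. Of the 2 members tested with the filter on low counts, 0 passed without the block by edgeR and by DESeq2, and 1 had an unadjusted p under 0.05. Without that filter and without the block, Gja1 passed (-0.73, edgeR adjusted p = 0.0050), where 160 of 17416 genes passed. When the crown markers were read before thinning, the log2 difference was -0.20 (adjusted p = 1), and over all alternatives the adjusted p ran from 0.000532 to 1.

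G2/M transcripts moved with this split in embryos 2 and 3. The crown-marked cells held a mean of 10.9, 11.2 and 12.2 thinned G2/M UMIs and the others 11.5, 18.4 and 16.2, and their part in the Gja1 difference was not tested. The median depth was 30424, 14344 and 26952.5 UMIs in the crown-marked and 28447, 24611 and 29847.5 UMIs in the other cells. Gjc1 was at 53.4, 85.1 and 84.1 CPM in the crown-marked and 61.0, 73.6 and 61.0 CPM in the other cells, overlapping (log2 difference 0.10, SE 0.195, edgeR adjusted p = 0.936). Gja4, Gja5, Gjb2 and Gjb5 were too low in LRO-like cells to be tested here.

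**Figure D5:**
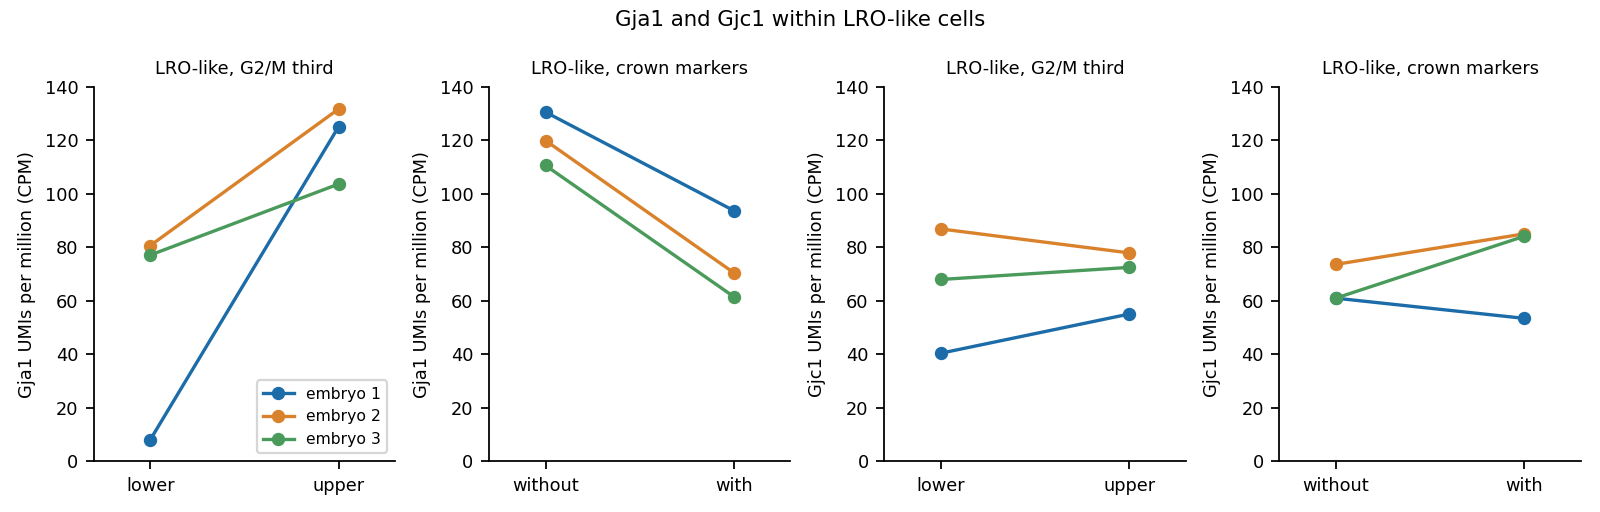
Level of Gja1 (left pair of panels) and Gjc1 (right pair) in CPM (y axis, from 0) in G2/M-low (lower) and G2/M-high (upper) LRO-like cells and in LRO-like cells without and with a crown marker. Each line joins the 2 values of 1 embryo. Gja1 is higher in the G2/M-high cells, from 8.08 to 125 CPM in embryo 1, and lower with a crown marker in all embryos, while Gjc1 goes up in 2 embryos and down in 1 in both splits.

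The genes whose means over the 15 lineages were most like each member, among 9972 genes on no marker list with at least 10 CPM in 1 lineage, are given as a description with no test. For Gja4 they were Oit3 (Pearson r = 0.99), Myct1 (0.98) and D030007L05Rik (0.98), all highest in endothelium-like cells. For Gjb2 they were Vil1, the villin of the brush border (0.94), Vmp1 (0.93) and 2610528J11Rik (0.93), all highest in extraembryonic endoderm-like cells. For Gjb5 they were Rps6ka6 (0.87), Carm1 (0.87) and Cox4i2 (0.84), all highest in allantois-like cells. For Gjc1 they were Rcn2 (0.98), Sntb2 (0.97) and Tead2 (0.96), and for Gja1 Ppip5k2 (0.92), Zdhhc6 (0.89) and Atf2 (0.89). Gja1 and Gjc1 themselves had an r of 0.54.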

How the data were processed

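Single-cell RNA was captured from 3 wt embryos with the 10x 3′ v3 kit, 1 library per embryo. Per the labels, the authors used Cell Ranger 3.1.0 and mm10, with EGFP added to the genome, and deposited raw UMI counts per gene and barcode, without normalization. Cells were kept at the limits of the study's Methods (at most 8500, 7500 and 8500 genes in embryos 1, 2 and 3, at least 1500 genes, at most 10% mitochondrial UMIs). Cells under 0.5% mitochondrial UMIs (573) were left out in place of clusters that the study removed by their low mitochondrial share and mixed markers. Cells with UMIs of 4 of 6 LRO markers were called LRO-like. The others took the lineage with the highest mean z-score of its 6 markers (at least 3 detected, 0.7 or more, and 0.4 above the next). These limits were set after marker levels were seen. The members and gene lists were chosen with earlier results of these data known. The named genes were the members, the detected or passing genes of the lists, some of which are not reported here, and the 3 genes most like each member.

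UMIs were summed per embryo and class, leaving out sums of under 10 cells, and tested with edgeR 4.0.16 (R 4.3.3; TMM, filterByExpr, quasi-likelihood test, Benjamini-Hochberg over all genes, threshold 0.05), checked on simulated counts. Alternatives were DESeq2 1.42.0, no filter, an embryo block, each embryo left out, other lineage rules, other class limits, and removal of the top 6% of doublet scores of each embryo (Scrublet in scanpy 1.11.5), since its own threshold marked 2, 210 and 6 cells. The sums of a pair of classes come from the same embryo, and their deviations from the class means correlated at 0.252 to 0.357 (LRO-like against other cells), 0.00514 to 0.547 (G2/M) and 0.142 to 0.433 (crown markers). Nothing says that the embryos came from separate litters. Depth per embryo was 207961733, 149341900 and 167503888 UMIs. A count of 0 was read as allowing 3 counts.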

Additional observations from a re-analysis of the deposited data

Results flagged for a closer look

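Among the members, Gjb2, Gjb5 and Gjc1 were singled out because the G2/M-rich cells of every embryo had the higher CPM in some lineages and the lower CPM in others. Gjc1 was higher in 1 lineage, the extraembryonic endoderm-like cells, and lower in 8 of the 13. Gjb5 was higher in 6 and lower in 2, the surface ectoderm-like and mesenchyme-like cells. Gjb2 was higher in 1 and lower in 3. Some of these signs rest on few UMIs. Gjb2 had 9 in all caudal epiblast-like cells, where it was higher, and 14 in LRO-like cells, where it was lower. Gjb5 had 19 in definitive endoderm-like and 24 in endothelium-like cells, where it was higher. The test of whether the difference varies between lineages (edgeR, adjusted over all genes) gave 0.176 for Gjc1, 0.683 for Gjb5 and 0.861 for Gjb2, so none passed. For Gjb5 and Gjb2, with few UMIs in several lineages, this is not read as a result.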

How the results depend on the processing

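Of the 5 detected members, the lineage with the highest level was the same for 5 in the main values and for 4 or more under each alternative: the highest lineage of Gjb5 became allantois-like with thinning to 5000 UMIs, that of Gja1 definitive endoderm-like without embryo 2, and that of Gjc1 presomitic mesoderm-like without embryo 3. Of the 75 levels, 29 moved by at least 1 SD with thinning and 15 with a mean over cells of their own CPM. Both counts include Gja4 in axial mesoderm-like cells, which stayed at 0 CPM and has an SD of 0. Of the junction genes tested in LRO-like cells 3 passed (Cdh5, whose call is not read as a result, among them), 8 with the replicate block, 5 by DESeq2, and 1 to 5 when 1 embryo was left out. Of the pairs of a member and a lineage in the G2/M comparison 3 passed, 3 with the replicate block, 1 with 2 equal parts in place of 3, and 1 to 2 when 1 embryo was left out. In the crown comparison 0 members passed, 1 with the replicate block and 1 without a filter on low counts, and 0 when any 1 embryo was left out. The replicate block changed no other call of a member. The sign turned for Gjc1 in extraembryonic endoderm-like cells without the top doublet scores (-0.17) and for Gjc1 in crown-marked cells without embryo 3 (-0.14, up to 0.30), the latter never past the threshold. The cause of these changes was not tested. The levels of Gja4, Gjb2 and Gjb5 in LRO-like cells rest on 2, 14 and 15 UMIs, which limits their precision.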

Other observations

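Gja6 (Cx33), a connexin known from the testis and no member of the set, was found in erythroid-like cells. They held 88.7% of its lineage UMIs, at 14.5 ± 0.388 CPM (n = 2), where it gave 27.6% and 26.7% of the UMIs of all connexin genes in embryos 2 and 3, after Gja1 and ahead of Gjc1. The next lineage by mean, primordial germ cell-like cells, had 2 UMIs. Gjd3 and Gje1 had 0 UMIs in all kept cells.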
